A study of Homo sapiens with 12 samples.

Results

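The genes described here are 10 that set the balance of phosphate and pyrophosphate around bone-forming cells or receive the hormones that act on mineral: ALPL, ENPP1, ANKH, PHOSPHO1, SLC20A1, SLC20A2, MGP, VDR, PTH1R and PHEX. They were chosen by name, 10 of 19775 genes with at least 1 probe set of their own on the array, and the probe set with the highest mean over the 12 arrays stood for each gene. SaOS-2 is an established line of human osteosarcoma cells, and Sa/CD99 stands for its clones wt22 and wt36, which were stably transfected with CD99, a small cell surface glycoprotein, by calcium phosphate and selected with neomycin. Both lines were profiled on Affymetrix HG-U133 Plus 2.0 arrays at day 0 and after 7 and 14 days in osteogenic medium, which held less serum than the routine medium, ascorbic acid and beta-glycerophosphate, an organic phosphate. Each of the 6 groups held 2 arrays. A group labelled Sa/CD99 is 1 array of each clone, so that its spread is a spread between clones, and the sources used here do not give whether the paired SaOS-2 arrays were separate cultures or 1 culture measured again, and in the second case the spread behind a p-value would be technical. No untransfected or empty-vector clone was among the arrays, so transfection, selection and cloning cannot be told apart from CD99.

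Mineral forms where phosphate is plentiful and pyrophosphate, which blocks crystal growth, is scarce. Tissue-nonspecific alkaline phosphatase (ALPL) splits pyrophosphate and releases phosphate, PHOSPHO1 releases phosphate from phosphocholine inside matrix vesicles, ENPP1 makes pyrophosphate from nucleotides outside the cell, and ANKH supplies it from inside the cell. The sodium-dependent transporters SLC20A1 and SLC20A2 carry phosphate into the cell, MGP is an extracellular inhibitor of calcification, and PHEX is an osteoblast and osteocyte protease needed for normal phosphate levels. VDR is the nuclear receptor of active vitamin D and PTH1R the receptor of parathyroid hormone and its related peptide, both of which bone-forming cells are known to carry.

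All values are log2 RMA values per probe set, and a difference of 1 is a doubling. A gene is called here when its Benjamini-Hochberg adjusted p by limma, over all 12894 probe sets tested, did not exceed 0.05 and its change reached 1.5-fold (0.58 on the log2 scale), and a gene is said to rise, fall or be higher or lower if it was called. Of the 10 genes, 4 passed the filters on signal and on spread and were tested (ALPL, ENPP1, ANKH and PTH1R). VDR and SLC20A1 were above the signal floor of 6.64 but varied too little over the arrays for the spread filter, and PHOSPHO1, SLC20A2, MGP and PHEX were at or below the floor. These 6 have values from a fit without filters, over 54613 probe sets, and lie outside the main test. The genes had 28 probe sets of their own, of which 9 were tested. Probes differ in brightness for reasons other than RNA amount, so no gene's level is set against another's.

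With 1 of the CD99 probe sets, the arrays labelled Sa/CD99 lay at 6.67 to 8.88 and SaOS-2 at 11.26 to 11.88, which goes against the label, and with the other both lines lay at 12.29 to 12.74. The stretch that each set detects, and whether the transfected sequence holds it, was not examined. The study's methods state that CD99 expression was checked by real-time PCR in every profiled sample, and call it verified. That measurement was not analysed here. Directions between the lines are given as the labels have them. Pairs of clones differed more (SD of the difference over probe sets 0.39 to 0.42) than pairs of SaOS-2 arrays (0.12 to 0.14). The log2 difference between 3 prime and 5 prime control probe sets was 0.03 to 0.20 for GAPDH and 0.11 to 0.46 for ACTB, the highest in wt36 at day 7. Of 7 osteoblast markers with a probe set of their own, 5 or 6 were above the floor in each group, while IBSP, the gene of bone sialoprotein, averaged 5.31 in Sa/CD99 at day 0 and SPP1, the gene of osteopontin, was at or below the floor. BGLAP had no probe set of its own. Of the markers of other cells, SOX9 (1 of 5 chondrocyte markers) and PPARG (1 of 5 adipocyte markers) were above the floor, and PTPRC and CTSK, the markers of blood cells and osteoclasts measured, were below it.

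**Figure D1:**
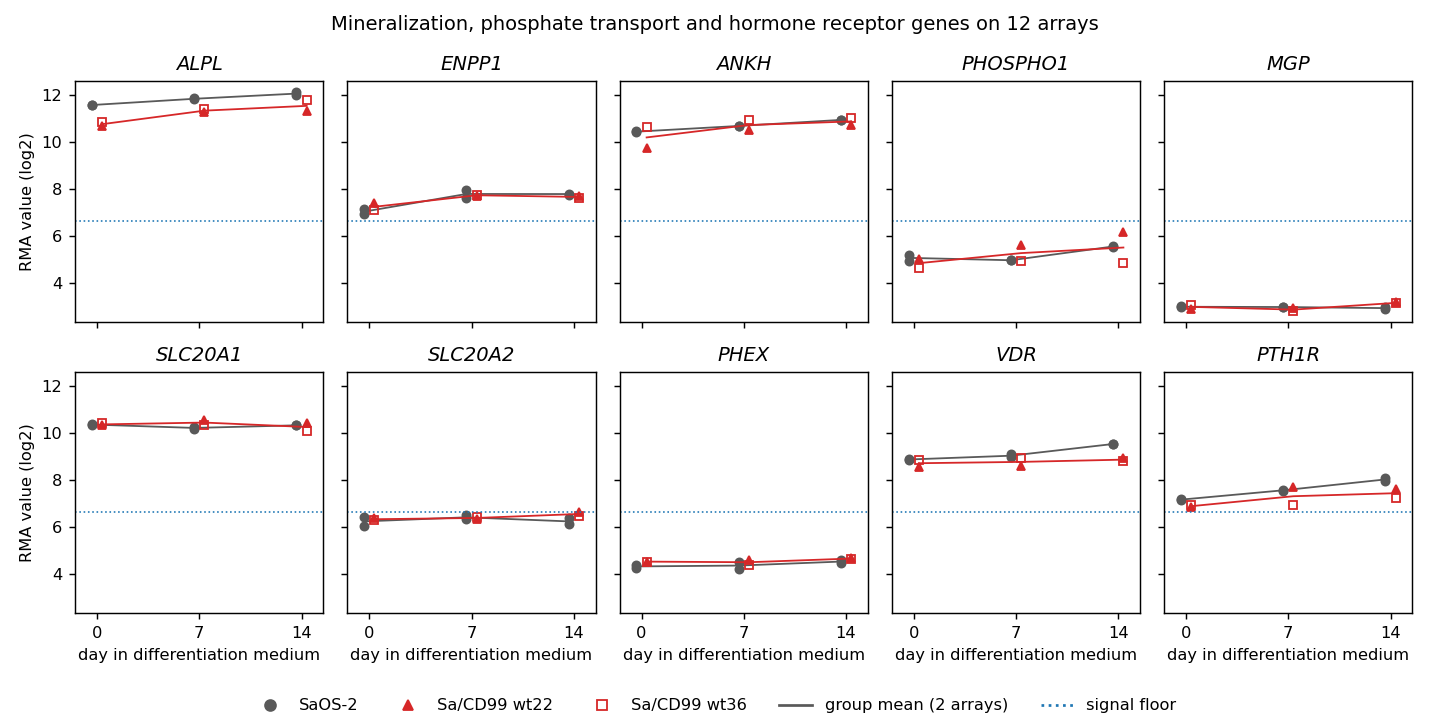
RMA values (log2) of the probe set that stands for each of the 10 genes, array by array, by day in differentiation medium (grey dots SaOS-2, red triangles clone wt22, open red squares clone wt36, lines group means of 2 arrays, dotted line the signal floor at 6.64). ALPL of SaOS-2 lies above both clones on every day, ENPP1 and PTH1R have their highest group means at the later days, and 4 genes lie at or below the floor.

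ALPL was the 1 gene of the set called between the lines at day 0, where it was 1.76-fold lower in the arrays labelled Sa/CD99. It also rose 1.72-fold over 14 days in those arrays. ENPP1 rose 1.68-fold in SaOS-2 at both later days and PTH1R rose 1.82-fold there at day 14. The promoters of ALPL and ENPP1 are shown because these genes, which remove and make pyrophosphate, both had higher values at the later days. The sequences are the 250 bases before the start of transcription from RefSeq (GRCh38.p14), not read from these cells; 6 of the 10 genes were matched by symbol, and SLC20A2, MGP, VDR and PHEX were not matched. RefSeq lists 3 starts for ALPL, and the one shown was picked after the sequences were seen. Capitals mark, on either strand, GGGCGG (a GC box, found in 42.6% of 35116 promoters over the same 250 bases) and TATAA (18.9%). ALPL is shown at chr1:21509173-21509422 and ENPP1 at chr6:131807770-131808019, both on the plus strand.
ALPL: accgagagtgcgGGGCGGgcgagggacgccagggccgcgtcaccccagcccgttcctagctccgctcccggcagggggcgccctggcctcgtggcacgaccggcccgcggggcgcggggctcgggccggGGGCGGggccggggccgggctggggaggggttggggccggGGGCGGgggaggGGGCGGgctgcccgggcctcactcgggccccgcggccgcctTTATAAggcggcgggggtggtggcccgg
ENPP1: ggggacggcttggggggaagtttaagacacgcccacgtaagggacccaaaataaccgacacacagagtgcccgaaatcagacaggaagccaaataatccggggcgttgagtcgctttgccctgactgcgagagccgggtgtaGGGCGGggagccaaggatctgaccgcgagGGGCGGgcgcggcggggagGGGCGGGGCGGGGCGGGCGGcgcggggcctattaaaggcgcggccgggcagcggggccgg

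Over these 250 bases, ALPL had 4 GC boxes and the letters TATAA on both strands, which overlap each other, 27 and 28 bases before the start. ENPP1 had 6 GC boxes, of which those nearest to the start overlap, and none of the TATAA letters. The GC content was 83.6% for ALPL and 68.8% for ENPP1, against a median of 58.0% over all promoters. Neither stretch held AGGTCA, a binding motif of nuclear receptors (12.1% of promoters), nor TGTGGT, a core of RUNX sites (11%). The other ALPL starts held none of the 4 motifs. The matches are a description of the letters in these windows.

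ALPL values at day 0 were 11.56 and 11.58 in SaOS-2, and 10.66 in wt22 and 10.85 in wt36. At day 7 they were 11.86 and 11.81 in SaOS-2, and 11.28 in wt22 and 11.38 in wt36. At day 14 they were 12.13 and 11.99 in SaOS-2, and 11.30 in wt22 and 11.77 in wt36. The lines did not overlap on any day, and both clones lay below both SaOS-2 arrays on each. The difference at day 0, Sa/CD99 minus SaOS-2, was -0.82 (SE 0.15, adjusted p = 0.0298, n = 2 and 2), and it passed. ALPL was thus 1 of 4 tested genes called, beside 1.47% of all probe sets tested for that day. At days 7 and 14 the differences were -0.51 (adjusted p = 0.105) and -0.52 (adjusted p = 0.123), and 0 of the 4 tested genes were called by limma on either day, beside 1.81% and 1.46% of probe sets. At an unadjusted p under 0.05 there were 1 (ALPL) at day 7 and 2 (ALPL and PTH1R) at day 14. The call of day 0 rests on the spread shared over all groups. It was lost with the arrays of day 0 alone (adjusted p = 0.148), and without any 1 of the 4 arrays of day 0 or of the SaOS-2 arrays of days 7 and 14, 8 of 12 omissions, with differences of -0.91 to -0.72 and adjusted p up to 0.238.

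The other ALPL probe set gave the same picture at day 0, with 11.15 and 11.09 in SaOS-2 against 10.17 in wt22 and 10.20 in wt36, a difference of -0.93 (SE 0.17, adjusted p = 0.0298) that was called. At days 7 and 14 its differences were -0.76 (adjusted p = 0.0522) and -0.54 (adjusted p = 0.156). Its lines did not overlap on any day either. In bulk RNA, fewer cells that make a transcript and less of it in each cell cannot be told apart.

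Over time, ALPL of the arrays labelled Sa/CD99 differed from day 0 by 0.58 at day 7 (1.49-fold, SE 0.15, adjusted p = 0.0164), just under the fold required, and by 0.78 at day 14 (1.72-fold, adjusted p = 0.00484), which was called. Each clone had higher values at both later days, by 0.62 and 0.64 in wt22 and by 0.53 and 0.92 in wt36. In SaOS-2 the differences were 0.27 at day 7 (adjusted p = 0.175) and 0.49 at day 14 (1.40-fold, adjusted p = 0.0342), under the fold required. The other probe set rose 1.97-fold at day 14 in the arrays labelled Sa/CD99 (0.98, adjusted p = 0.0033). The call of day 14 was lost without the wt36 array of that day (0.55, adjusted p = 0.0296, under 1.5-fold), and with the Sa/CD99 arrays of days 0 and 14 alone (adjusted p = 0.106).

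In order of level, ALPL was lowest in Sa/CD99 at day 0 (10.76), followed by Sa/CD99 at day 7 (11.33), Sa/CD99 at day 14 (11.54), SaOS-2 at day 0 (11.57), at day 7 (11.84) and at day 14 (12.06). Neighbours in this order did not overlap, apart from Sa/CD99 at day 14, whose arrays overlapped with those of both its neighbours. After 14 days the mean of the clones was near the value at which SaOS-2 started. The change of the clones from day 0 exceeded that of SaOS-2 by 0.31 at day 7 (95% interval -0.16 to 0.78) and by 0.29 at day 14 (-0.18 to 0.77), and neither interaction passed (adjusted p = 0.999 for both). Of the 4 tested genes 0 were called by limma in either interaction, and 0 had an unadjusted p under 0.05, beside 0% and 0.0155% of all probe sets called.

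ENPP1 at day 0 was 7.13 and 6.93 in SaOS-2, 7.39 in wt22 and 7.08 in wt36. At day 7 its values were 7.61 and 7.95 in SaOS-2, 7.71 in wt22 and 7.74 in wt36. At day 14 they were 7.76 and 7.80 in SaOS-2, 7.69 in wt22 and 7.62 in wt36. All arrays of the later days lay above all arrays of day 0, in both lines. In SaOS-2 ENPP1 rose by 0.75 at day 7 (SE 0.14, 1.68-fold, adjusted p = 0.00374), where it was 1 of 4 tested genes called, beside 12.8% of probe sets called higher. It rose by 0.75 at day 14 as well (1.68-fold, adjusted p = 0.00555), 1 of 2 tested genes called on that day with PTH1R, beside 6.03% of probe sets called higher. In the arrays labelled Sa/CD99 the differences were 0.49 at day 7 (adjusted p = 0.0253) and 0.42 at day 14 (adjusted p = 0.0426), both under 1.5-fold, and the interactions were -0.26 (95% interval -0.71 to 0.19) and -0.33 (-0.78 to 0.12). Without SaOS-2 array 2 of day 0 the adjusted p at day 14 was 0.0565 and the call was lost.

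Between the lines ENPP1 differed by 0.21, -0.06 and -0.12 at days 0, 7 and 14 (adjusted p = 0.632, 0.845 and 0.704), and the 95% intervals of the 3 days together span -0.44 to 0.52. Its 3 other probe sets lay below the floor on all arrays. One of them, 229088_at, was called higher in SaOS-2 at day 7 in the fit without filters (0.59, adjusted p = 0.0459), in which 5.38% of probe sets were called higher.

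ANKH had the widest gap between the clones at day 0 of the 4 tested genes. Its values then were 10.47 and 10.40 in SaOS-2, 9.75 in wt22 and 10.63 in wt36, so that wt22 lay 1.83-fold below wt36 and the SaOS-2 arrays lay between the clones. At day 7 they were 10.66 and 10.70 in SaOS-2, 10.52 in wt22 and 10.92 in wt36. At day 14 they were 10.93 and 10.94 in SaOS-2, 10.71 in wt22 and 11.04 in wt36. On each day the SaOS-2 arrays lay between the clones on this probe set, and the differences between lines were -0.25, 0.04 and -0.06 (SE 0.25). The difference at day 0 was 0.19 without the wt22 array and -0.68 without the wt36 array (adjusted p = 0.608 and 0.155). On 223093_at both clones lay below both SaOS-2 arrays at day 0 (-0.32, adjusted p = 0.489), and on 223094_s_at at day 7 (-0.27, adjusted p = 0.449), and neither difference passed.

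The day 14 change of ANKH in the arrays labelled Sa/CD99 was 0.68 (1.60-fold, SE 0.25, adjusted p = 0.0571), which did not pass. With the replicate number as a block, which sets each clone against itself, its adjusted p was 0.00553 and it was called, in a fit that called 7.2% of probe sets higher. Without the block ALPL was the 1 of 4 tested genes called in that comparison, beside 6.39% called higher. The difference from day 0 was 0.95 in wt22 and 0.41 in wt36. Both other tested ANKH probe sets were called in this comparison, 223094_s_at with 0.65 (adjusted p = 0.0299) and 223093_at with 0.84 (1.78-fold, adjusted p = 0.00602). The change rested on the arrays of day 0: it was 0.24 without wt22 and 1.12 without wt36 (adjusted p = 0.353 and 0.00348). At day 7 the change was 0.53 (adjusted p = 0.129), and 0 of 4 tested genes were called by limma, beside 10.4% of probe sets called higher, with 2 (ALPL and ENPP1) at an unadjusted p under 0.05. Without the wt36 array of day 0 both ANKH (0.97) and ALPL (0.67) were called at day 7. In SaOS-2 ANKH differed from day 0 by 0.24 and 0.50 (adjusted p = 0.458 and 0.148).

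PHOSPHO1 lay below the floor on all 12 arrays, at 4.64 to 6.15, near the array medians of 5.25 to 5.31. Its highest value was that of wt22 at day 14 (6.15), with 4.85 in wt36 and 5.51 and 5.58 in SaOS-2 on that day. In the fit without filters no difference between lines or days passed (adjusted p of 0.274 or more). MGP lay at 2.80 to 3.16 and PHEX at 4.21 to 4.66, both below the array medians. At such values the arrays do not show whether the transcript was present, and a difference was not detectable.

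**Figure D2:**
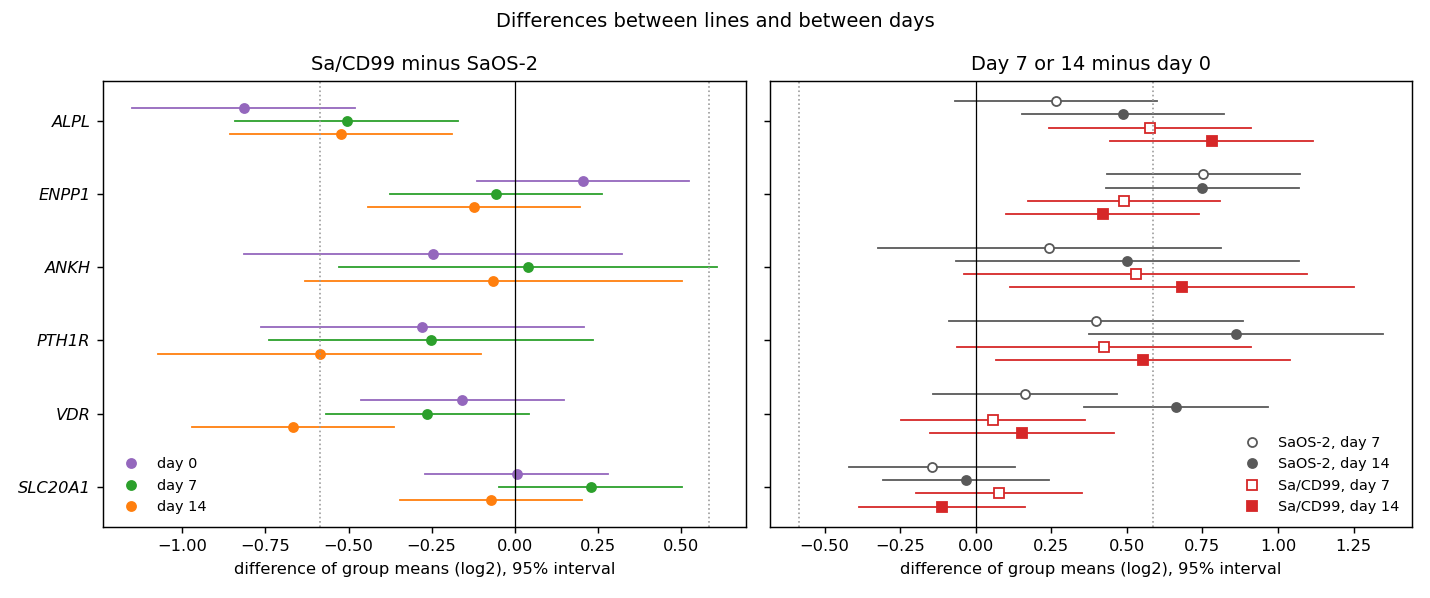
Differences of group means (log2) with 95% intervals for the 4 tested genes and, from the fit without filters, VDR and SLC20A1, between the lines on each day (left) and of days 7 and 14 from day 0 in each line (right, grey SaOS-2, red Sa/CD99, filled at day 14), with dotted lines at the fold of 1.5. In the left panel (Sa/CD99 minus SaOS-2) ALPL lies below 0 between the lines on all 3 days, and in the right panel the 4 tested genes lie above 0 in both lines.

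Of the phosphate transporters, SLC20A1 lay on its brighter probe set at 10.09 to 10.54 over the 12 arrays, with group means of 10.22 to 10.45 and no change from day 0 above 0.14 in size (SE 0.12). Its differences between lines were 0.01, 0.23 and -0.07 at days 0, 7 and 14 (adjusted p of 0.543 or more in the fit without filters), and the 95% intervals together span -0.35 to 0.50. The dimmer set, 230494_at, was tested and moved with the day. It read 6.90 and 6.91 in SaOS-2, 6.27 in wt22 and 6.41 in wt36 at day 0. At day 7 it read 7.62 and 7.61 in SaOS-2, 7.28 in wt22 and 7.41 in wt36, and at day 14 6.49 and 6.0 in SaOS-2, 5.93 in wt22 and 6.19 in wt36. All 4 arrays of day 7 lay above the other 8, and all 4 of day 14 lay below the floor, as did both clones at day 0. The set exceeded the floor on 6 arrays, those of day 7 and the SaOS-2 arrays of day 0. It thus passed the signal filter only with its day 7 values, the day at which it was called higher. This set rose by 0.71 at day 7 in SaOS-2 (1.64-fold, adjusted p = 0.00768) and by 1.01 in the arrays labelled Sa/CD99 (2.01-fold, adjusted p = 0.00175). At day 14 it fell in SaOS-2 (-0.66, adjusted p = 0.0141), beside 8.86% of probe sets called lower. Which transcripts each set detects was not examined, and the sets disagree at day 7.

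SLC20A2 lay at 6.03 to 6.62, below the floor on all arrays, and no comparison of it passed in the fit without filters. Its 3 probe sets had 1 value above the floor between them, that of 229371_at in wt22 at day 7 (6.89). The 20 nearest tested genes on chromosome 8 had a median difference of wt22 minus wt36 of 0.50, 0.41 and 0.31 at days 0, 7 and 14. For the other members such medians were -0.25 to 0.15. Between the lines, the neighbours of ALPL had medians of 0.02, 0.15 and 0.03, those of VDR -0.03, -0.02 and 0.03 and those of PTH1R 0.06, 0.17 and 0.04. Of the differences of these 3 genes themselves, that of ALPL at day 0 was the 1 that passed.

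VDR values at day 0 were 8.90 and 8.85 in SaOS-2, 8.56 in wt22 and 8.87 in wt36. At day 7 they were 8.97 and 9.10 in SaOS-2, 8.60 in wt22 and 8.95 in wt36. At day 14 they were 9.53 and 9.54 in SaOS-2, 8.92 in wt22 and 8.82 in wt36. The lines overlapped at day 0 and did not overlap at days 7 and 14. In the fit without filters VDR rose in SaOS-2 by 0.66 at day 14 (SE 0.14, 1.58-fold, adjusted p = 0.017), where 1.87% of probe sets were called higher. In the arrays labelled Sa/CD99 the difference from day 0 was 0.15 (adjusted p = 0.564), 0.36 in wt22 and -0.05 in wt36. The interaction at day 14 was -0.51 (95% interval -0.94 to -0.08, unadjusted p = 0.0249, adjusted p = 0.999) and did not pass. The rise in SaOS-2 was lost without any 1 of the 4 SaOS-2 arrays of days 0 and 14 (0.64 to 0.68, adjusted p up to 0.118).

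Between the lines VDR differed by -0.16 and -0.26 at days 0 and 7 and by -0.67 at day 14 (1.59-fold, adjusted p = 0.0778), which did not pass. A block by replicate number takes steady differences between the clones out of the error, though a comparison of lines rests on that spread. It also pairs SaOS-2 arrays by a number whose meaning is not known. Such a fit called 569 of 54613 probe sets (1.04%) at day 14, against 19 higher and 215 lower without the block. In that fit the VDR difference at day 14 had an adjusted p of 0.0386. It also passed without any 1 of the 4 clone arrays of days 0 and 7 (adjusted p from 0.047), and with any other array left out it reached up to 0.448. The probe set 204255_s_at, which was tested, gave -0.64 for that day (adjusted p = 0.118). The set nearer to the floor, 204253_s_at, gave -0.05 in the fit without filters (adjusted p = 0.91), and its lines overlapped.

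That second VDR set peaked at day 7 in both lines, where the first did not. It read 7.67 and 7.69 in SaOS-2, 7.22 in wt22 and 7.79 in wt36 at day 0. At day 7 it read 8.68 and 8.62 in SaOS-2, 8.13 in wt22 and 8.36 in wt36, and at day 14 8.41 and 8.26 in SaOS-2, 7.83 in wt22 and 7.57 in wt36. It rose at day 7 by 0.97 in SaOS-2 (1.96-fold, adjusted p = 0.00334) and by 0.74 in the arrays labelled Sa/CD99 (1.67-fold, adjusted p = 0.0124). At day 14 it rose in SaOS-2 (0.66, adjusted p = 0.0226), while the clones moved apart, by 0.60 in wt22 and by -0.21 in wt36. The set 204253_s_at was called higher in SaOS-2 at day 7 without filters (0.62, adjusted p = 0.00411). Counted by the probe set with the second highest mean instead of the first, 2 genes were called higher at day 7 in each line, VDR and SLC20A1. This was beside 12.8% of probe sets called higher in SaOS-2 and 10.4% in Sa/CD99. The SLC20A1 set passed the signal filter only with its day 7 values, so its part in this count is not independent of that filter. The count is over ALPL, ANKH, SLC20A1, VDR and PTH1R, which has a single set. ENPP1, called in SaOS-2 at day 7 on its brightest set, is not in it, because its second set lay below the floor and was not tested.

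**Figure D3:**
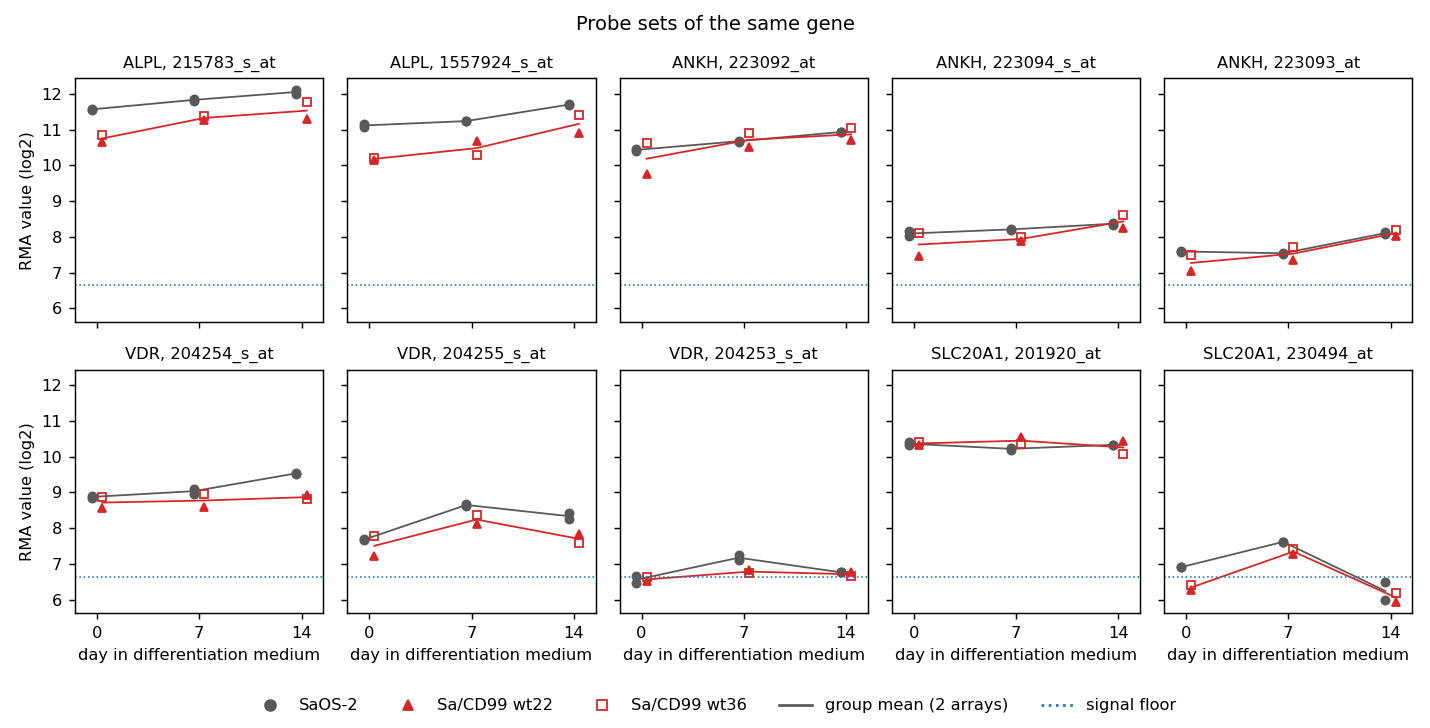
RMA values (log2) by array and day of the probe sets of ALPL, ANKH, VDR and SLC20A1 that lie above or near the signal floor (symbols as in the plot of the 10 genes). The ALPL and ANKH sets have higher group means at day 14 than at day 0, while the second brightest sets of VDR and SLC20A1 have theirs highest at day 7 in both lines, and for their brightest sets no change at day 7 was called.

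PTH1R values at day 0 were 7.18 and 7.14 in SaOS-2, 6.84 in wt22 and 6.93 in wt36. At day 7 they were 7.59 and 7.53 in SaOS-2, 7.68 in wt22 and 6.94 in wt36. At day 14 they were 8.09 and 7.96 in SaOS-2, 7.64 in wt22 and 7.24 in wt36. SaOS-2 had its values in 3 separate steps, while the clones parted at day 7, where wt22 lay above and wt36 below both SaOS-2 arrays. In SaOS-2 PTH1R rose by 0.86 at day 14 (SE 0.22, 1.82-fold, adjusted p = 0.0171), and the difference at day 7 was 0.40 (adjusted p = 0.163). In the arrays labelled Sa/CD99 it differed from day 0 by 0.42 at day 7 (adjusted p = 0.153), 0.85 in wt22 and 0.0036 in wt36, and by 0.55 at day 14 (1.47-fold, adjusted p = 0.0679), 0.80 in wt22 and 0.31 in wt36. The interactions were 0.03 (95% interval -0.66 to 0.71) and -0.31 (-1.0 to 0.38). The rise in SaOS-2 was lost without any 1 of the 4 SaOS-2 arrays of days 0 and 14 (0.80 to 0.93, adjusted p up to 0.0993).

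Between the lines PTH1R differed by -0.28, -0.25 and -0.59 at days 0, 7 and 14 (adjusted p = 0.686, 0.516 and 0.213). At days 0 and 14 both clones lay below both SaOS-2 arrays. At day 7 the difference was -0.62 without the wt22 array (adjusted p = 0.0615) and 0.12 without the wt36 array, the array with the highest ACTB 3 prime to 5 prime difference (0.46), whose part in the result was not tested.

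Over the 4 tested genes the median change was 0.33 at day 7 and 0.62 at day 14 in SaOS-2. It was 0.51 and 0.62 in Sa/CD99, beside medians of 0.0045, -0.11, -0.01 and -0.09 over all probe sets tested. All 4 had positive values in all 4 comparisons. Between the lines their medians were -0.26, -0.15 and -0.32, beside -0.01, -0.03 and -0.01. The genes that did not pass the filters are not in these medians. Over all 10 genes without filters the medians between the lines were -0.08, -0.04 and -0.07, with 4, 4 and 3 of the 10 above 0. The medians over all probe sets in that fit were 0.01, 0.01 and 0.02. By day the medians of the 10 genes were 0.17 and 0.49 in SaOS-2, with 0.25 and 0.32 for Sa/CD99, beside -0.02, 0.03, -0.02 and 0.04 over all probe sets. The medians of the 10 include the 4 genes at or below the floor. Of 6 markers of dividing cells, 2 fell at day 7 and 3 at day 14 in SaOS-2, beside 8.63% and 8.86% of probe sets called lower. In Sa/CD99 1 and 3 fell, beside 7.78% and 13%. The medians over the 6 were -0.39, -0.58, -0.36 and -0.59, and MKI67 (0.04) and CDK1 (0.15) lay above 0 in SaOS-2 at day 7. Those that fell included AURKA, a mitotic kinase (-0.89 in SaOS-2 at day 7), and TOP2A, the topoisomerase of dividing cells (-1.02 in Sa/CD99 at day 14). Between the lines 0 of the 6 were called by limma, with 0, 1 and 1 at an unadjusted p under 0.05 on the 3 days, beside 1.47%, 1.81% and 1.46% of probe sets called. The part of these markers in the results by day was not tested.

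The pathways around the 10 genes were described through 4 lists. Of their 24 tested genes 0 were called by limma between the lines on any day, with 3, 6 and 1 at an unadjusted p under 0.05 at days 0, 7 and 14. Over all probe sets tested 1.47%, 1.81% and 1.46% were called on these days, so that 0 of 24 lies near the share of all probe sets. Of the matrix vesicle and pyrophosphate list, 6 of 16 genes were tested. SMPD3, a sphingomyelinase whose loss impairs bone mineral, was called higher at day 14 in SaOS-2 (1.76, SE 0.14, adjusted p = 7.93e-05). It was also called at day 14 in the arrays labelled Sa/CD99 (1.49, adjusted p = 0.000178), and at day 7 in SaOS-2 (0.83, adjusted p = 0.00202). Its group means in SaOS-2 and Sa/CD99 were 5.42 and 5.87 at day 0, 6.25 and 6.29 at day 7, and 7.18 and 7.36 at day 14. Only those of day 14 lay above the signal floor. The day 7 call in SaOS-2 thus compares means below the floor and is not read as a change. SMPD3 may have passed the signal filter through its day 14 arrays, so its day 14 calls may not be independent of that filter. NT5E, the enzyme that makes adenosine from AMP outside the cell, fell at day 14 in both lines (-1.38 in SaOS-2, adjusted p = 0.021, and -1.05 in Sa/CD99, adjusted p = 0.0472, SE 0.36). Its call in Sa/CD99 lay near the threshold. With the signal filter alone 1 gene of this list was called in that comparison, against 2 with the main settings. GGCX, the carboxylase that activates MGP, fell in SaOS-2 at day 7 (-0.82, adjusted p = 0.000699), beside 8.63% of probe sets called lower, and differed by 0.13 at day 14. The list thus had 1 gene called in each direction at both days in SaOS-2 and at day 14 in Sa/CD99, and 0 of 6 in Sa/CD99 at day 7, where 5 had an unadjusted p under 0.05. The shares of all probe sets called higher were 12.8% and 6.03% at days 7 and 14 in SaOS-2 and 10.4% and 6.39% in Sa/CD99, and those called lower were 8.63% and 8.86%, and 7.78% and 13%. Its medians in SaOS-2 were -0.41 and 0.04.

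Of the phosphate handling list, 2 of 11 genes were tested. XPR1, which exports phosphate from the cell, fell in SaOS-2 at day 7 (-0.63, adjusted p = 0.00587) and day 14 (-0.86, adjusted p = 0.00233), beside 8.63% and 8.86% of probe sets called lower. In the arrays labelled Sa/CD99 it differed by -0.34 (adjusted p = 0.0681) and -0.49 (adjusted p = 0.0187, under 1.5-fold). FGFR1, a receptor through which FGF23 signals, was not called in any comparison. The hormone FGF23 itself, its co-receptor KL and the matrix proteins DMP1 and MEPE were at or below the floor.

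Of the vitamin D list, 3 of 17 genes were tested, and NCOA1, a coactivator of nuclear receptors, was the 1 called. It rose at day 7 by 0.75 in SaOS-2 (SE 0.10, adjusted p = 0.000818) and by 0.73 in the arrays labelled Sa/CD99 (adjusted p = 0.000953). Of all probe sets tested, 12.8% and 10.4% were called higher on that day in SaOS-2 and Sa/CD99. RXRA, the usual partner of VDR, lay at a mean of 10.3 and was not called. CYP24A1, the enzyme that breaks down active vitamin D and a well-known target of VDR, was at or below the floor with a mean of 3.0, as were CYP27B1 and TNFSF11.

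Of the parathyroid hormone signalling list, 13 of 23 genes were tested, and the same 4 were called at day 7 in both lines, 3 higher and 1 lower, beside 12.8% of probe sets called higher and 8.63% lower in SaOS-2 and 10.4% and 7.78% in Sa/CD99. CREB1, a transcription factor activated by cyclic AMP, rose by 0.91 in SaOS-2 and by 0.75 in Sa/CD99 (SE 0.17, adjusted p = 0.00367 and 0.00959). PRKACB, a catalytic subunit of protein kinase A, rose by 0.81 and 0.66 (adjusted p = 0.00577 and 0.0151), and PDE4D, which degrades cyclic AMP, by 0.86 and 0.98 (adjusted p = 0.00401 and 0.00248). ADCY7, an adenylate cyclase that makes cyclic AMP, fell by 1.35 and 1.21 on the log2 scale (adjusted p = 0.00316 and 0.00578). At day 14 PDE4D remained called higher in both lines (0.65 and 0.84) and ADCY7 lower (-1.24 and -1.64), while CREB1 (-0.23 and -0.37) and PRKACB (-0.01 and 0.04) were not called. Of all probe sets, 6.03% were called higher and 8.86% lower on that day in SaOS-2, and 6.39% and 13% in Sa/CD99. The Gs alpha gene GNAS lay at a mean of 13.9 and failed the spread filter.

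**Figure D4:**
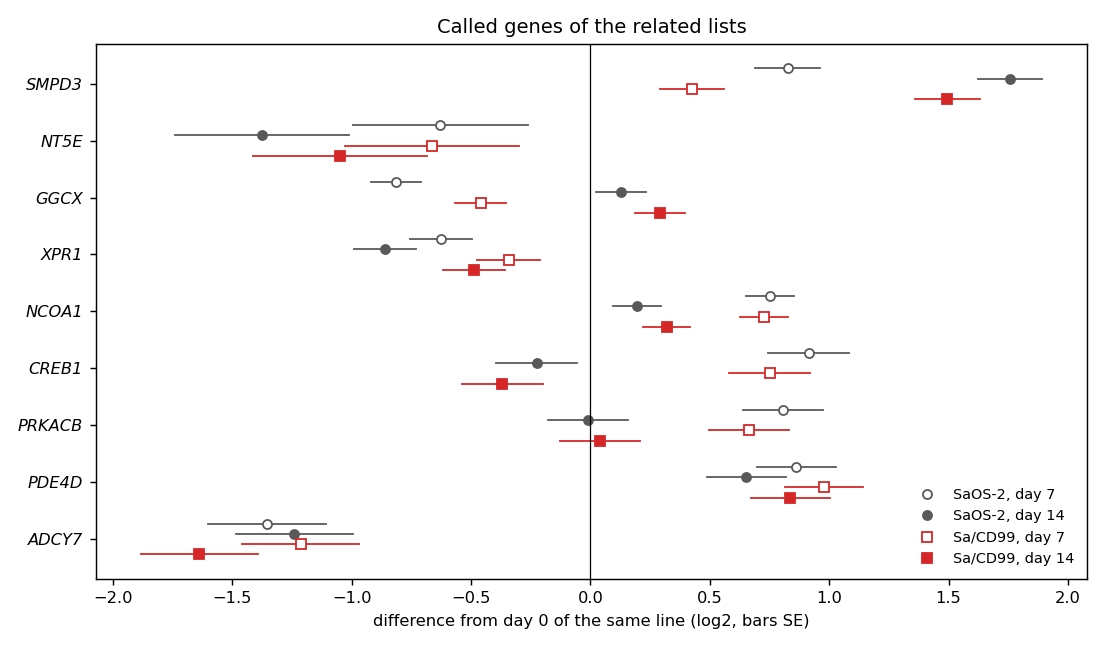
Differences from day 0 of the same line (log2, bars SE) for the 9 genes of the 4 related lists that were called in at least 1 comparison by day (grey SaOS-2, red Sa/CD99, open at day 7 and filled at day 14). SMPD3 and PDE4D lie above 0 at both days in both lines, ADCY7, NT5E and XPR1 below 0, and CREB1 and PRKACB lie well above 0 at day 7 alone.

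The genes whose values over the 12 arrays ran closest to those of ALPL, by the root mean square difference of values centred on each gene's mean, were PHACTR1 (0.16), TECPR2 (0.17) and GPSM1 (0.18), where the values of ALPL about its own mean had a root mean square of 0.43. Those closest to ENPP1 were MCM6, LINC00847 and DNAJC22 (0.11 each, against 0.31), and those closest to PTH1R were CDX1 (0.13), NTN1 (0.16) and ANKRD13C-DT (0.16, against 0.39). Each was the closest of 7425 other genes over the same 12 arrays, which share their normalization. For PHACTR1 the group means were 7.84, 7.95 and 8.26 for SaOS-2, with 7.11, 7.76 and 7.93 for Sa/CD99, in the order of the days.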

How the data were processed

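The 12 total RNA samples were measured on Affymetrix HG-U133 Plus 2.0 arrays. Values were deposited on the log2 scale, 1 per probe set, and were made by the authors with affy and RMA per the submitters' processing notes (background correction, quantile normalization and summary of probes). No version of either is given in the sources used here. Names came from the platform annotation, and probe sets of several genes were not named. After the study's methods, probe sets whose signal did not exceed 100 in 9 or more of 12 arrays, or with an interquartile range no larger than the median (0.219), were left out, as were 62 control probe sets. Of 54613 others, 18677 passed the signal filter and 12894 were tested. Group means over the 12 arrays were fitted with limma 3.58.1 in R 4.3.3 (6 residual and 3.18 prior degrees of freedom), after a test on simulated data, with Benjamini-Hochberg adjustment over all probe sets tested. The 9 comparisons set the lines against each other at days 0, 7 and 14, set days 7 and 14 of a line against its day 0, and took both interactions of line and day. Precision is limited by the number of arrays.

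By the labels, arrays with the same clone number are of the same transfected clone, and so are paired across days: differences between the clones correlated between days with r = 0.58, 0.32 and 0.63 over probe sets. For SaOS-2 the labels do not say what a number marks (r = -0.04, 0.24 and -0.05). All 10 genes, up to 4 called genes of each related list per comparison, and the 3 genes closest to each called member of the main test were named by rule. Other probe sets of the 10 genes and the markers were named after their values were seen. Genes, lists and rules were chosen with earlier results of these data known. Alternatives were other filters, quantile normalization, weights by line, the replicate block, fewer arrays and the second brightest probe set. For VDR and SLC20A1, the fits without filters that left out arrays or used the block or the weights were added after the data were seen.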

Additional observations from a re-analysis of the deposited data

How the results depend on the processing

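Counts of called genes are over the members tested in each setting; VDR and SLC20A1 enter them with the second brightest probe set, and VDR on its brightest set with the signal filter alone or no filter, where the count at day 14 in SaOS-2 was 3 (2 with the main settings). Between the lines at day 0 the count was 1, and 0 with only the arrays of the groups compared. With the second brightest probe set the count was 2 at day 7 in SaOS-2 (1 with the main settings) and 2 at days 7 and 14 in Sa/CD99 (0 and 1). At day 7 these counts include the SLC20A1 set, which passed the signal filter only with its day 7 values. ENPP1 is not in these counts, because its second set was not tested. Quantile normalization of the tested probe sets gave 1 at day 7 and 2 at day 14 in Sa/CD99. The replicate block gave 2 at day 14 in Sa/CD99, where ANKH was added, and with it VDR was called between the lines at day 14. For comparisons between the lines the block takes the steady difference between the clones out of the error. The block changed no other call of ALPL, ENPP1, ANKH, PTH1R, VDR and SLC20A1, and its results for the other 4 genes are not given here. With only the groups compared, the count at day 14 in Sa/CD99 was 0. With each array left out in turn, the counts between the lines were 0 to 1, 0 to 0 and 0 to 1 at days 0, 7 and 14, in SaOS-2 1 to 1 and 0 to 2 at days 7 and 14, in Sa/CD99 0 to 2 and 1 to 2, and for both interactions 0 to 0. The upper value between the lines at day 14 was reached without the wt36 array of that day, where ALPL passed (-0.76, adjusted p = 0.0271).

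Of 1044 values of single genes under alternatives, 979 kept their call and direction, 20 lost a call, 21 gained one and 24 values that were not called had the other sign. No called value changed sign. Most of the 1044 were of comparisons that had no call to lose, so 979 does not measure how well calls held. For ALPL between the lines at day 0 the call was lost in 8 of 12 omissions of an array and 1 of 9 other alternatives. For ALPL at day 14 in Sa/CD99 these were 1 of 12 and 1 of 9. In SaOS-2 at day 14, PTH1R and VDR each lost the call in 4 of 12 omissions, and ENPP1 in 1 of 12. ENPP1 at day 7 in SaOS-2 lost it in 0 of 12. Signal near the floor limits PHOSPHO1, SLC20A2, MGP and PHEX, whose values show no change that can be read.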
